A study of Mus musculus with 12 samples.

Results

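The genes described here encode proteins of the extracellular matrix or proteins that bind to it: Fn1, Tnc, Fbln2, Lamb3, Lama5, Col4a1, Col4a2, Sparc and Thbs1. They were chosen by name, and each matched a single entry, so that the set comprised 9 of the 31026 entries listed in every table of the series. The rule that picks them uses no measured value, although the names were proposed with earlier results of these data known.

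Messenger RNA was sequenced from cultured epithelial cells of the C57BL/6 mouse kidney, in 12 samples forming 4 groups of 3. JNK-deficient cells had the genotype Jnk1-/- Jnk2-/- and came, per the series' design text, from cells with a floxed Jnk1 gene, a germline Jnk2 deletion and the Rosa-CreER transgene, which gives a Cre recombinase that is switched on by an added ligand. Control cells carried Rosa-CreER as well, with no Jnk deletion stated. The groups were JNK-deficient cells suspended for 4 hours, control cells suspended for 4 hours, JNK-deficient cells attached as a monolayer and control cells attached as a monolayer. The study addressed the part of the JNK pathway in anoikis, a form of cell death set off when an epithelial cell is detached from its matrix. The labels state neither how many lines or clones stand for a genotype nor whether the samples of a group were separate cultures or animals, so the authors' p-values may measure technical spread.

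The extracellular matrix under a kidney tubule is a basement membrane, a sheet built mainly of laminin trimers, type IV collagen, nidogen and perlecan, to which cells hold on through integrins. Fibronectin and tenascin C are glycoproteins that are abundant in provisional or injured matrix, while SPARC and thrombospondin are matricellular proteins, which modulate how cells contact matrix rather than forming its scaffold. JNK is a stress-activated kinase whose best known substrate is c-Jun, a subunit of the transcription factor AP-1.

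Levels are given in FPKM, the fragments of a gene per kilobase of its transcript, scaled to the library size, so that they can be set side by side between genes. The authors' deposited tables hold 1 FPKM value per group and no value per sample, so no SD between samples is available and the depth is unknown. Log2 fold changes were computed from these values with the suspended group, or the JNK-deficient group, on top, and a gene is said to have risen or fallen where the authors' q-value was below 0.05. Standard errors (SE) were derived from the fold change and the authors' p-value. Where p was at its lowest step of 5e-05 such an SE is only an upper bound and is not printed. Levels are compared within a table, since tables that share a group were scaled apart by up to 0.09 on the log2 scale.

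The RNA of the targeted gene Jnk1 (Mapk8) was at 2.52 FPKM in suspended JNK-deficient and 10.9 FPKM in suspended control cells, and at 2.26 FPKM in attached JNK-deficient and 8.76 FPKM in attached control cells (q = 0.00099 and 0.000347 in the authors' deposited tables). Jnk2 (Mapk9) was at 17.4 FPKM in suspended JNK-deficient and 29.2 FPKM in suspended control cells, and at 8.89 FPKM in attached JNK-deficient and 12.8 FPKM in attached control cells. All 12 epithelial markers examined (among them Epcam, Cdh1, Krt8 and Krt18) were tested in the authors' deposited tables. Their summed level was 2753 FPKM in suspended JNK-deficient and 2820 FPKM in suspended control cells, and 5100 FPKM in attached JNK-deficient and 5444 FPKM in attached control cells. As in any bulk sample, fewer cells of a type and less RNA per cell cannot be told apart.

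Across genotypes, Fn1, Tnc and Fbln2 stood far lower in JNK-deficient cells, suspended or attached, whereas the laminin genes Lamb3 and Lama5 did not pass the threshold in either state and Sparc and Thbs1 rose. Across attachment, Thbs1, Lamb3 and Lama5 fell in suspended cells of both genotypes, Col4a1 rose in both, and Col4a2 rose in control cells and was not tested in JNK-deficient cells. Fn1 passed the threshold for suspension in JNK-deficient cells, and Fbln2 and Sparc did so in control cells.

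In suspended JNK-deficient against suspended control cells, 2 of the 9 members rose and 4 fell, where 5.57% of the 12795 entries tested rose and 6.93% fell. In attached JNK-deficient against attached control cells, 2 of the 7 members tested rose and 3 fell, where 14.7% of 12960 entries rose and 14.1% fell. In suspended against attached JNK-deficient cells, 1 of 7 rose and 4 fell, where 30.6% of 13136 entries rose and 29.0% fell. Suspension thus moved a large share of all entries each way, and the members' counts for it are not read as a property of matrix genes. In suspended against attached control cells, 2 of 9 rose and 5 fell, where 33.0% of 13386 entries rose and 32.1% fell. Correction for transcript GC content and length shifted this balance: 4315 entries then rose and 2203 fell with suspension in JNK-deficient cells (4025 and 3813 uncorrected), and 4696 rose and 2856 fell in control cells (4417 and 4300 uncorrected). The median log2 fold change of the members tested was -0.35 in the suspended and 0.05 in the attached genotype comparison, and -0.996 and -0.65 for suspension in JNK-deficient and in control cells. Over all entries tested these 4 medians lay between -0.00067 and 0.04.

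**Figure D1:**
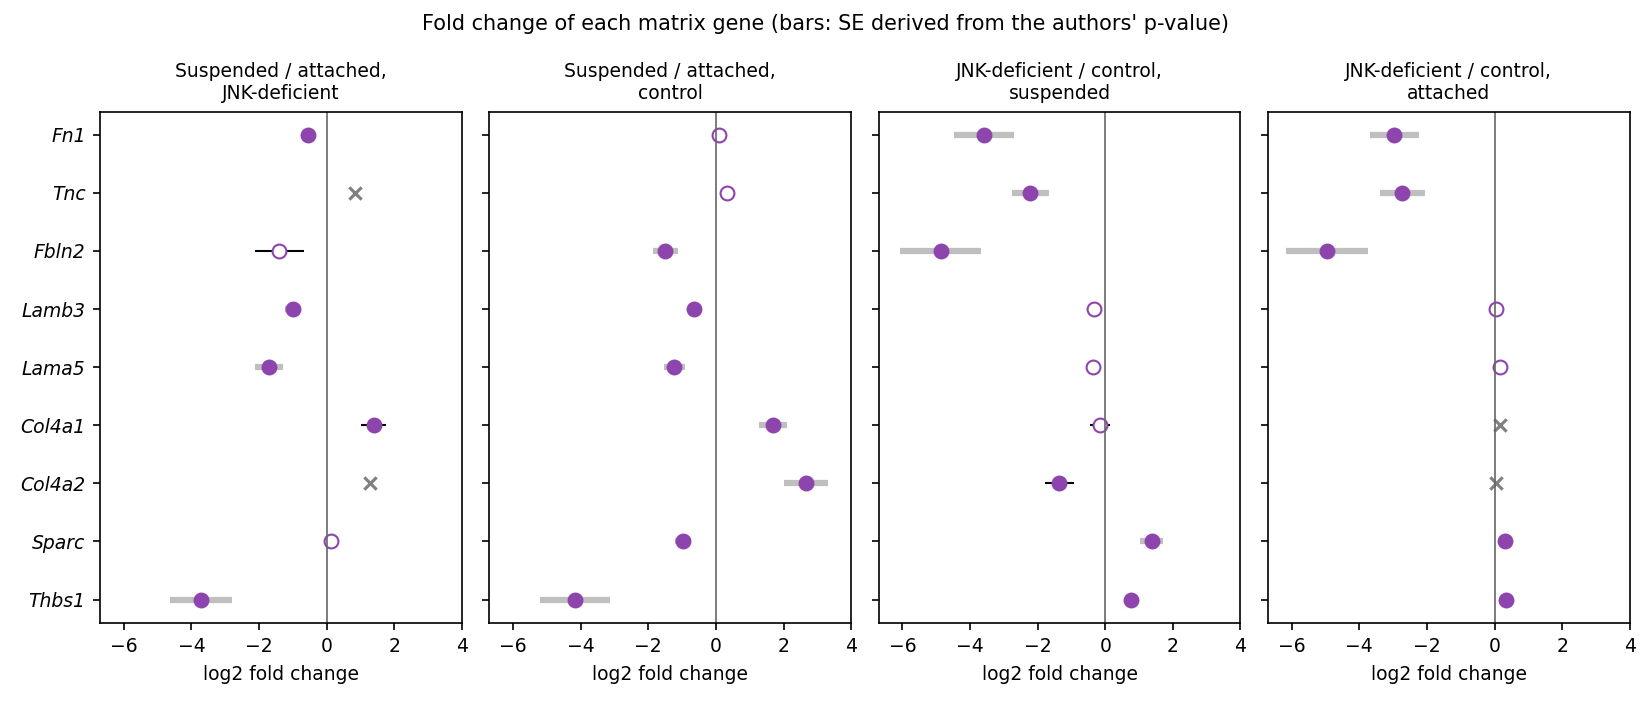
Log2 fold change of each of the 9 matrix genes in the 4 comparisons (horizontal axis; genes down the page). Filled points had an authors' q-value below 0.05, hollow points did not and crosses were not tested; thin black bars are the derived SE and thick grey bars its upper bound, and Fn1, Tnc and Fbln2 lie between -2.22 and -4.95 in both genotype panels.

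Fn1 encodes fibronectin, the adhesive glycoprotein to which epithelial cells bind through integrins, and lies on chromosome 1 (mm10, positions 71585523 to 71662843, minus strand). Among suspended cells it was at 13.9 FPKM in JNK-deficient cells and 168 FPKM in control cells. Among attached cells it was at 18.9 FPKM in JNK-deficient cells and 147 FPKM in control cells. Fibronectin RNA was therefore 12.1-fold lower in suspended and 7.78-fold lower in attached JNK-deficient cells (log2 fold changes of -3.60 and -2.96; q = 0.00099 and 0.000347 in the authors' deposited tables). These were the 41st and 24th lowest fold changes among the entries tested with a level above 0 in both groups.

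Suspension itself changed Fn1 little beside that. JNK-deficient cells had 13.1 FPKM when suspended and 19.0 FPKM when attached, a fall of 1.45-fold (log2 fold change -0.54, SE 0.145; q = 0.000526 in the authors' deposited table). Control cells had 165 FPKM when suspended and 157 FPKM when attached (log2 fold change 0.08, SE 0.114; q = 0.561 in the authors' deposited table). Both control groups thus stood at the top, not separated by the test, above attached and then suspended JNK-deficient cells. An exon of Fn1 overlaps an exon of the antisense gene Apol7d in the GENCODE annotation, and whether counting used strand is not stated, so reads of the pair could not be separated.

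Tnc encodes tenascin C, a hexameric glycoprotein that binds fibronectin and counteracts cell spreading (chromosome 4, mm10, 63959785 to 64149924, minus strand). It was a low gene throughout. Suspended cells had 0.329 FPKM of Tnc in the JNK-deficient group and 1.53 FPKM in the control group. Attached cells had 0.172 FPKM in the JNK-deficient group and 1.14 FPKM in the control group. Tnc was thus 4.65-fold lower in suspended and 6.60-fold lower in attached JNK-deficient cells (log2 fold changes of -2.22 and -2.72; q = 0.00099 and 0.000347 in the authors' deposited tables). For suspension, Tnc was not tested in JNK-deficient cells, where it was at 0.312 FPKM suspended and 0.173 FPKM attached. In control cells, at 1.51 FPKM suspended and 1.21 FPKM attached, it did not pass the threshold (log2 fold change 0.31, SE 0.179; q = 0.109 in the authors' deposited table). With a pseudocount of 1 added to the FPKM, which shrinks the fold of a low gene, the genotype log2 fold changes of Tnc were -0.93 in suspended and -0.87 in attached cells. Its exons overlap those of the opposite-strand transcript 8030451A03Rik.

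Fbln2 encodes a fibulin, a calcium-binding protein of basement membranes and elastic fibres that binds fibronectin and laminin (chromosome 6, mm10, 91212764 to 91272540, plus strand). It showed the widest gap between genotypes of the 9 genes. Suspended JNK-deficient cells had 0.214 FPKM against 6.25 FPKM in suspended control cells, and attached JNK-deficient cells had 0.524 FPKM against 16.2 FPKM in attached control cells. The level was 29.2-fold lower in suspended and 31.0-fold lower in attached JNK-deficient cells (log2 fold changes of -4.87 and -4.95; q = 0.00099 and 0.000347 in the authors' deposited tables). These were the 12th and 5th lowest fold changes among the entries tested with a level above 0 in both groups. Their size rests on JNK-deficient levels under 1 FPKM, and with a pseudocount of 1 the log2 fold changes of Fbln2 were -2.58 in suspended and -3.50 in attached cells.

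With suspension, Fbln2 was at 0.200 FPKM in suspended and 0.527 FPKM in attached JNK-deficient cells, a log2 fold change of -1.40 whose SE was 0.728 (q = 0.0858 in the authors' deposited table). In control cells it fell to 6.14 FPKM suspended against 17.3 FPKM attached (log2 fold change -1.49; q = 0.000123 in the authors' deposited table). The fold changes were close in size in both genotypes, but under 1 FPKM the JNK-deficient value did not pass the test. After correction for GC content (57.0% in Fbln2) and length they were -0.64 in JNK-deficient and -0.85 in control cells.

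**Figure D2:**
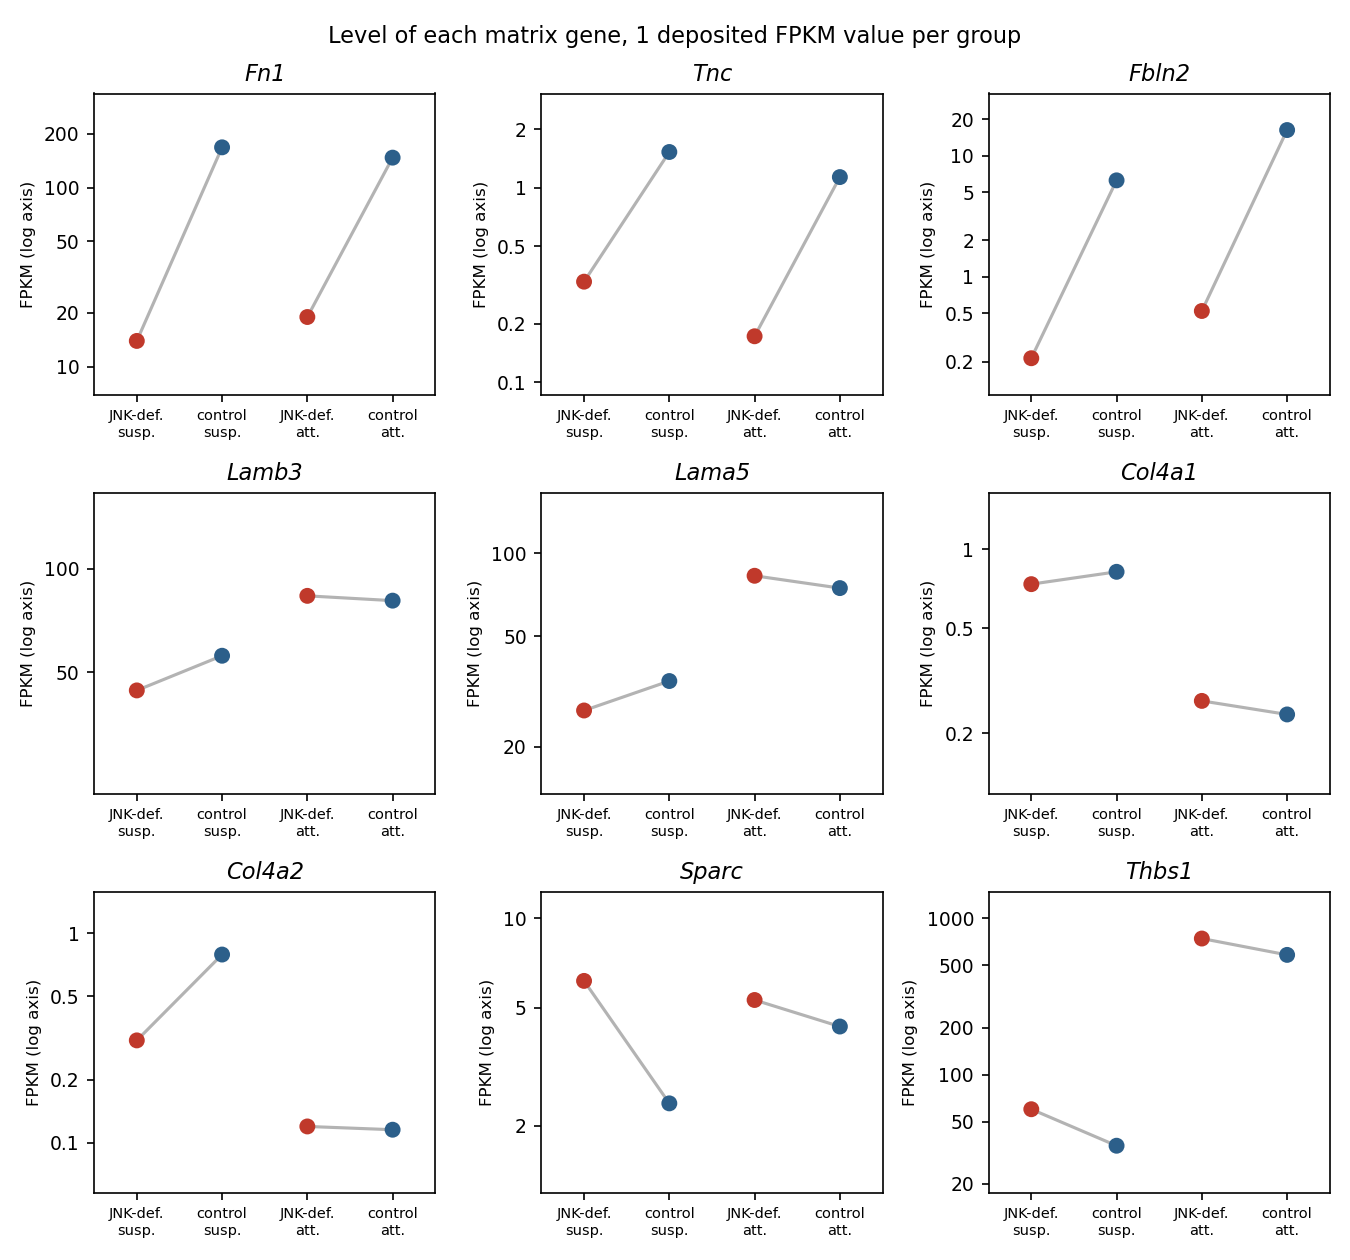
FPKM of each gene on a log axis in suspended and attached JNK-deficient (red) and control (blue) cells, 1 deposited value per group from the 2 genotype tables, with a grey line joining the genotypes in each state. In Fn1, Tnc and Fbln2 the red points lie below the blue ones in suspended and in attached cells. Thbs1, Lamb3 and Lama5 separate by attachment, by more than the separate scaling of the 2 genotype tables can add.

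Fn1, Tnc and Fbln2 were the members that fell together in JNK-deficient cells in both states, and RefSeq promoter windows (GRCm38.p6, 250 bases before to 50 after the annotated start) were held for Tnc and Fbln2. They are printed on the gene's own strand because AP-1, the factor downstream of JNK, was searched for in them. Capitals mark GGGCGG, the GC box bound by Sp-family factors, or its reverse complement. The Tnc window printed lies at chr4:64046887-64047186 (minus strand) and the Fbln2 window at chr6:91212514-91212813 (plus strand). Another Tnc window, at chr4:64046966-64047265 (minus strand), overlaps the former and is not printed.
Tnc: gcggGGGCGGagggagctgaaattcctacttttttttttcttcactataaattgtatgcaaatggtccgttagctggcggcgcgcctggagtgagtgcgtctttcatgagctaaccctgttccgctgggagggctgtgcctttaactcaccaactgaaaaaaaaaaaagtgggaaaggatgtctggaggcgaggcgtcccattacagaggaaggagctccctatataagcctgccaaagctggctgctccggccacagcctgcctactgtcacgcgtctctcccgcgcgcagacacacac
Fbln2: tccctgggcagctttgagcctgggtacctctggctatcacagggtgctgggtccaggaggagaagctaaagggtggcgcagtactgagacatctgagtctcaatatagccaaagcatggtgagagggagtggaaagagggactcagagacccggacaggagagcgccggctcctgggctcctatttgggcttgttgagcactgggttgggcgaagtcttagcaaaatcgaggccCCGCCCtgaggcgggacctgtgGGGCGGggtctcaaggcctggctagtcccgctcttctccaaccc
Neither printed window held the AP-1 motif TGANTCA or the related CRE motif TGACGTCA on either strand. The same was true of all 9 windows held for 7 of the members, where 7.81% of the 32851 RefSeq windows held TGANTCA and 1.79% held TGACGTCA. GGGCGG occurred once in the Tnc window and at 2 places in the Fbln2 window, against 35.7% of all windows with at least 1 copy. A match or its absence describes the letters of the window alone.

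The fall of Fn1, Tnc and Fbln2 was set beside markers of fibroblasts, cells that make these proteins in many tissues. Of 12 fibroblast and mesenchymal markers, 2 were tested in suspended cells, Pdgfra and Twist1. Pdgfra was lower at 1.49 FPKM in JNK-deficient and 3.04 FPKM in control cells (q = 0.0436 in the authors' deposited table). Twist1 did not pass the threshold there (q = 0.987 in the authors' deposited table). In attached cells 1 was tested, Twist1, and it was lower at 10.7 FPKM in JNK-deficient and 13.3 FPKM in control cells (q = 0.00526 in the authors' deposited table). The summed level of the list was 9.70 FPKM in suspended JNK-deficient and 11.4 FPKM in suspended control cells, and 11.2 FPKM in attached JNK-deficient and 13.6 FPKM in attached control cells. Twist1 made up most of the attached sums. The defining markers Col1a1, Col1a2, Col3a1, Dcn and Lum were each at 0.174 FPKM or less in every group of the genotype tables, and Lum was listed at 0 in both suspended groups. With suspension the list had 1 marker higher (Pdgfra) and 1 lower (Twist1) in each genotype. The part of fibroblasts in the fall of Fn1, Tnc and Fbln2 was not tested.

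Lamb3 and Lama5 encode a beta and an alpha chain of laminin. Lamb3 joins Lama3 in the laminin of hemidesmosomes (chromosome 1, mm10, 193207725 to 193343878, plus strand), and Lama5 gives the main alpha chain of mature tubular basement membrane (chromosome 2, mm10, 180176373 to 180225859, minus strand). Both were abundant and lower in suspended cells of each genotype. Lamb3 was at 42.0 FPKM in suspended and 83.8 FPKM in attached JNK-deficient cells, and at 54.9 FPKM in suspended and 85.9 FPKM in attached control cells. Lama5 was at 25.7 FPKM in suspended and 83.3 FPKM in attached JNK-deficient cells, and at 33.9 FPKM in suspended and 79.5 FPKM in attached control cells. The log2 fold changes with suspension were -0.996 in JNK-deficient and -0.65 in control cells for Lamb3, and -1.70 in JNK-deficient and -1.23 in control cells for Lama5 (q = 0.000144 for JNK-deficient and 0.000123 for control cells in the authors' deposited tables).

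Between genotypes neither laminin gene passed the threshold. Suspended cells had 44.2 FPKM of Lamb3 in the JNK-deficient and 55.8 FPKM in the control group (log2 fold change -0.34, SE 0.126; q = 0.0578 in the authors' deposited table). They had 27.0 FPKM of Lama5 in the JNK-deficient and 34.5 FPKM in the control group (log2 fold change -0.35, SE 0.130; q = 0.0526 in the authors' deposited table). These lay just outside the threshold, and centring the fold changes on the median of all entries put both just inside it (adjusted p = 0.0489 for Lamb3 and 0.0448 for Lama5, from the authors' p-values and the derived SE). Attached cells had 83.3 FPKM of Lamb3 in the JNK-deficient and 80.7 FPKM in the control group (log2 fold change 0.05, SE 0.0871; q = 0.768 in the authors' deposited table). They had 82.8 FPKM of Lama5 in the JNK-deficient and 74.8 FPKM in the control group (log2 fold change 0.15, SE 0.0967; q = 0.275 in the authors' deposited table). In order of level, each laminin gene had the attached groups together at the top, then suspended control and last suspended JNK-deficient cells.

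The laminin falls with suspension moved together with those of epithelial markers. Of the 12 epithelial markers, 2 rose and 9 fell with suspension in JNK-deficient cells (median log2 fold change -0.74, summed 2615 FPKM suspended and 5126 FPKM attached), and 2 rose and 10 fell in control cells (median log2 fold change -0.84, summed 2775 FPKM suspended and 5793 FPKM attached). Of all entries tested, 30.6% rose and 29.0% fell in JNK-deficient cells, and 33.0% and 32.1% in control cells. The part of the epithelial markers in the laminin values was not tested.

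The laminin falls also moved together with transcript composition. Among the entries with the highest GC content, at least 57.7% in the longest annotated transcript, suspension gave a median log2 fold change of -1.08 (JNK-deficient cells) and -1.01 (control cells), against -0.07 and -0.02 for the entries highest in GC in the suspended and attached genotype comparisons. Lama5 had 59.9% GC and Lamb3 55.6%. After the trend with GC content and length was subtracted and the authors' p-values carried over through the derived SE, the log2 fold change of Lama5 with suspension was -0.49 in JNK-deficient cells (adjusted p = 0.327) and -0.14 in control cells (adjusted p = 0.718). That of Lamb3, from the authors' p-values in the same way, was -0.45 in JNK-deficient cells (adjusted p = 0.111) and -0.21 in control cells (adjusted p = 0.251). So the laminin calls ended under this correction. The authors' p-values of both genes with suspension were at their lowest step, so each SE used was an upper bound. Fewer calls can pass with such a bound, and whether these would end with an exact SE cannot be told. The corrected values of Thbs1, at 49.9% GC, were -3.82 in JNK-deficient and -4.27 in control cells, and those of Col4a1, at 57.7% GC, were 2.20 in JNK-deficient and 2.38 in control cells. For Col4a2, at 60.6% GC, the corrected value in control cells was 3.88, against 2.67 uncorrected. Whether the trend is technical was not tested.

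**Figure D3:**
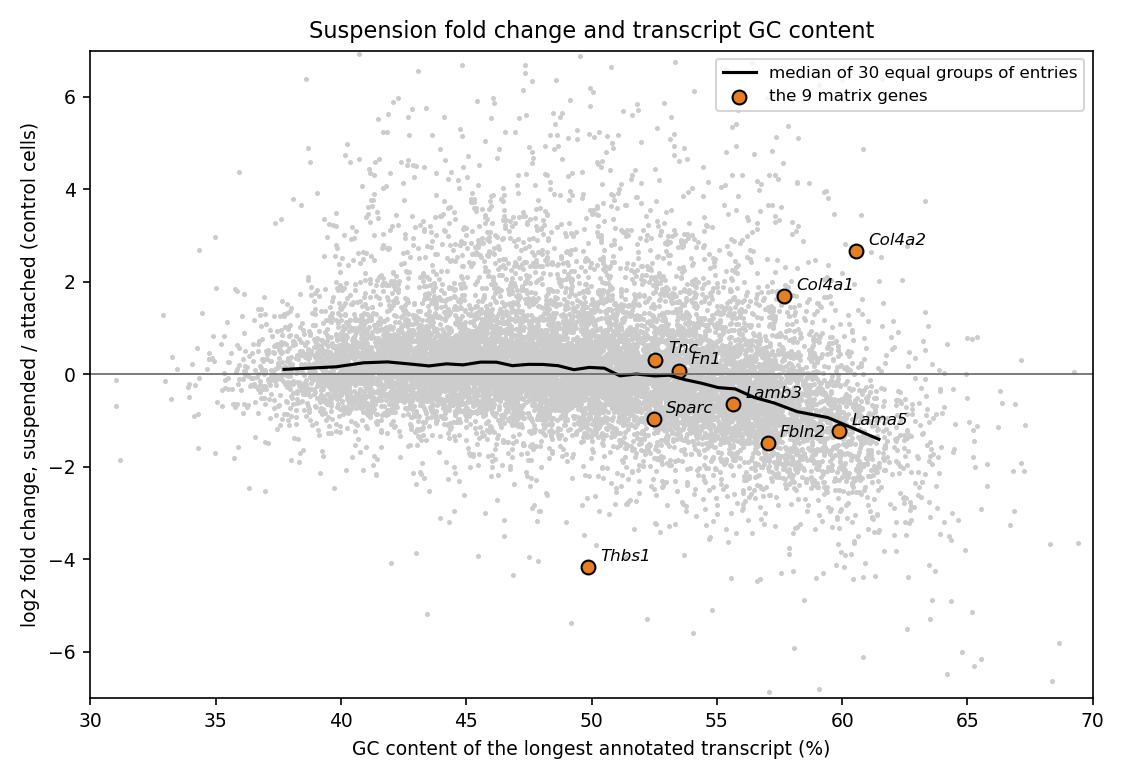
Log2 fold change of suspended over attached control cells (vertical axis) against the GC content of the longest annotated transcript in percent (horizontal axis); grey points are tested entries within the axes, and the line is the median of 30 equal groups. Lama5 and Lamb3 lie close to the falling line, Thbs1 far below it, and Col4a1 and Col4a2 above it.

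Col4a1 and Col4a2 encode the chains of the most widespread type IV collagen trimer, the network-forming collagen of basement membranes. They stand head to head on chromosome 8 (mm10, Col4a1 at 11198423 to 11312826 on the minus strand, Col4a2 at 11312829 to 11449287 on the plus strand), with 2 bases between their annotated starts in the files. The genes are known to share a bidirectional promoter, and the 78 bases that the RefSeq promoter windows of both have in common are printed for that reason (chr8:11312777-11312854, GRCm38.p6, plus strand). Capitals mark the GC box, which lies in the windows of both genes.
Col4a1 and Col4a2: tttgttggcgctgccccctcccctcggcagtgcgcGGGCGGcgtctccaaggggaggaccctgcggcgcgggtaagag
Both genes were near the lower limit of these data, under 1 FPKM in every group. Col4a1 was at 0.698 FPKM in suspended and 0.267 FPKM in attached JNK-deficient cells, and at 0.806 FPKM in suspended and 0.251 FPKM in attached control cells. It rose with suspension 2.62-fold in JNK-deficient cells (log2 fold change 1.39, SE 0.357; q = 0.000275 in the authors' deposited table) and 3.22-fold in control cells (log2 fold change 1.69; q = 0.000123). With a pseudocount of 1 these log2 fold changes of Col4a1 were 0.42 in JNK-deficient and 0.53 in control cells.

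Col4a2 was not tested for suspension in JNK-deficient cells, where it was at 0.293 FPKM suspended and 0.120 FPKM attached. In control cells it was at 0.779 FPKM suspended and 0.123 FPKM attached, a rise of 6.35-fold (log2 fold change 2.67, or 0.66 with a pseudocount of 1; q = 0.000123 in the authors' deposited table). Between genotypes the partners had unlike fold changes. Suspended JNK-deficient cells had 0.308 FPKM of Col4a2 against 0.791 FPKM in suspended control cells (log2 fold change -1.36, or -0.45 with a pseudocount of 1, SE 0.426; q = 0.016 in the authors' deposited table). Col4a1 was at 0.736 FPKM in suspended JNK-deficient and 0.819 FPKM in suspended control cells (log2 fold change -0.16, SE 0.309; q = 0.848 in the authors' deposited table). The difference between the genes' fold changes was not tested. In attached cells Col4a1 was at 0.265 FPKM in the JNK-deficient and 0.236 FPKM in the control group, and Col4a2 at 0.120 FPKM in the JNK-deficient and 0.115 FPKM in the control group, with neither tested.

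Among low genes, rises with suspension outnumbered falls in both genotypes, more so in control cells. Of 1335 tested entries with a mean under 1 FPKM in JNK-deficient cells, 30.9% rose and 11.7% fell, against 30.6% and 31.0% of entries at 1 FPKM or more. Of 1409 tested entries with a mean under 1 FPKM in control cells, 41.5% rose and 9.37% fell, against 32.0% and 34.8% of entries at 1 FPKM or more. In the suspended genotype comparison, where Col4a2 fell, 2.08% of 770 such low entries rose and 11.2% fell. Exons of Col4a1 and Col4a2 overlap each other on opposite strands, and those of Col4a2 also overlap the antisense gene Gm15419, so reads near the shared start could not be assigned with certainty.

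Markers of endothelial cells, which make type IV collagen, moved with the rise of Col4a1 and Col4a2. Of 8 such markers, 2 of the 3 tested rose in suspended JNK-deficient cells, and 4 of the 5 tested rose in suspended control cells, with none falling in either. Their summed level was 8.01 FPKM in suspended and 0.804 FPKM in attached JNK-deficient cells, and 7.53 FPKM in suspended and 0.583 FPKM in attached control cells. Most of that in control cells was Esam, at 4.27 FPKM suspended and 0.144 FPKM attached. Pecam1 was at 0.583 FPKM suspended and 0.0241 FPKM attached and Cdh5 at 0.669 FPKM suspended and 0.152 FPKM attached. Neither Pecam1 nor Cdh5 was tested for suspension in JNK-deficient cells, where the 2 that rose were Esam and Vwf. Between genotypes in suspension the endothelial sum was 8.44 FPKM in JNK-deficient and 7.66 FPKM in control cells, with 3 tested and 0 past the threshold.

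Markers of other kidney cells moved as well. Of the podocyte markers, 2 of 3 tested rose in suspended JNK-deficient cells (summed 21.7 FPKM suspended and 6.03 FPKM attached), and 2 of 3 rose in suspended control cells (37.6 FPKM suspended and 8.98 FPKM attached). Of the leukocyte markers, 3 of 5 tested rose and 1 fell in suspended JNK-deficient cells (summed 78.8 FPKM suspended and 78.3 FPKM attached), and 3 of 4 rose and 1 fell in suspended control cells (70.2 FPKM suspended and 55.9 FPKM attached). Beside these counts and those of the endothelial markers, 30.6% of all entries tested rose and 29.0% fell with suspension in JNK-deficient cells. In control cells 33.0% rose and 32.1% fell. Among tested entries with a mean under 1 FPKM, 30.9% rose and 11.7% fell in JNK-deficient cells. The shares of such low entries in control cells were 41.5% and 9.37%. The part of these cell types in the values of Col4a1 and Col4a2 was not tested.

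Sparc encodes a collagen-binding matricellular protein (chromosome 11, mm10, 55394501 to 55420080, minus strand). It was higher in JNK-deficient cells, with the larger fold in suspension. Suspended cells had 6.15 FPKM in the JNK-deficient and 2.38 FPKM in the control group, a rise of 2.58-fold (log2 fold change 1.37; q = 0.00099 in the authors' deposited table). Attached cells had 5.31 FPKM in the JNK-deficient and 4.32 FPKM in the control group, a rise of 1.23-fold (log2 fold change 0.30, SE 0.103; q = 0.0171 in the authors' deposited table), which was lost at a q-value threshold of 0.01. For suspension, JNK-deficient cells had 5.84 FPKM suspended and 5.33 FPKM attached (log2 fold change 0.13, SE 0.199; q = 0.584 in the authors' deposited table). Control cells fell to 2.34 FPKM suspended against 4.60 FPKM attached (log2 fold change -0.97; q = 0.000123 in the authors' deposited table). Suspended control cells were thus the low group, and the JNK-deficient groups, not separated by the test, stood at the top.

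Thbs1 encodes thrombospondin, a matricellular glycoprotein that activates latent TGF-beta and inhibits angiogenesis (chromosome 2, mm10, 118111922 to 118127133, plus strand). It was the most abundant of the 9 genes in attached cells and had the steepest fall with suspension among them. JNK-deficient cells had 57.0 FPKM suspended and 747 FPKM attached, and control cells had 34.5 FPKM suspended and 622 FPKM attached. The level fell 13.1-fold in JNK-deficient and 18.0-fold in control cells (log2 fold changes of -3.71 and -4.17; q = 0.000144 and 0.000123 in the authors' deposited tables), the 79th and 43rd lowest fold changes among the entries tested with a level above 0 in both groups.

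Genotype moved Thbs1 far less. Suspended cells had 60.1 FPKM in the JNK-deficient and 35.1 FPKM in the control group (1.71-fold, log2 fold change 0.78; q = 0.00099 in the authors' deposited table). Attached cells had 744 FPKM in the JNK-deficient and 584 FPKM in the control group (1.27-fold, log2 fold change 0.35, SE 0.111; q = 0.00853 in the authors' deposited table). The order of the groups was attached JNK-deficient, attached control, suspended JNK-deficient and suspended control, each neighbouring pair that shares a table being separated by the test. Exons of Thbs1 overlap those of the opposite-strand transcript Gm29233.

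Whether suspension acted differently in the 2 genotypes was asked by subtracting the log2 fold change in control cells from that in JNK-deficient cells, with a z-test on the derived SE and Benjamini-Hochberg adjustment over 12765 entries. Of the 7 members tested, 1 was more positive in JNK-deficient cells and 1 more negative, where 0.548% and 1.25% of all entries were. Fn1 was the negative one, with a difference of -0.62 (SE 0.184 from the authors' p-values; adjusted p = 0.0469 by the z-test). This call was marginal, since the adjusted p by the same z-test was 0.113 after correction for GC content and length. With the SE from the suspension tables alone the adjusted p was 0.0789. The SE of Fn1 was the same there, and only the adjustment over other entries differed. The genotype tables alone gave 0.917, but their p-values for Fn1 were at the lowest step. That SE is therefore an upper bound and cannot decide the call. Sparc was the positive one, with a difference of 1.11 (SE from the authors' p-values at most 0.312; adjusted p = 0.0296 by the z-test). Its adjusted p was 0.0856 with the SE from the genotype tables alone, also an upper bound.

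The other members tested did not pass. The difference was -0.35 for Lamb3 (SE 0.153 from the authors' p-values; adjusted p = 0.317 by the z-test) and -0.47 for Lama5 (SE 0.162; adjusted p = 0.127). It was 0.46 for Thbs1 (SE from the authors' p-values at most 0.221; adjusted p = 0.406 by the z-test), 0.10 for Fbln2 (SE at most 0.816; adjusted p = 0.993) and -0.30 for Col4a1 (SE at most 0.548; adjusted p = 0.947). For Fbln2 the 95% interval was at most -1.50 to 1.70 and for Col4a1 at most -1.37 to 0.78, since their SEs are upper bounds. Tnc and Col4a2 were not tested, as each lacked a test in suspended against attached JNK-deficient cells.

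Genes that act with the members were then read from 8 lists of matrix and receptor genes, and each gene named from them in a comparison passed the threshold of the authors' deposited table there. Of all entries tested, 30.6% rose and 29.0% fell with suspension in JNK-deficient cells, and 33.0% and 32.1% in control cells. Between genotypes 5.57% rose and 6.93% fell in suspended cells, and 14.7% and 14.1% in attached cells. The counts of every list below stand beside these shares and are not read as a property of the list. The partners of the laminin members moved in different directions. Of the 11 laminin chain genes, which include Lamb3 and Lama5, 7 were tested. With suspension 2 rose and 4 fell in JNK-deficient cells, while 3 rose and 4 fell in control cells. Lamb3 and Lama5 themselves were among the 4 that fell in each genotype. Lamc1, the gamma chain of most basement membrane laminins, was at 44.6 FPKM suspended and 11.6 FPKM attached in JNK-deficient cells (log2 fold change 1.95) and at 36.6 FPKM suspended and 11.1 FPKM attached in control cells (log2 fold change 1.72). Lama3, the partner of Lamb3, was at 84.4 FPKM suspended and 45.0 FPKM attached in control cells (log2 fold change 0.91), a rise where Lamb3 fell. Between genotypes in suspended cells 2 laminin genes rose and none fell, among them Lamc1 at 47.0 FPKM in JNK-deficient and 37.2 FPKM in control cells (log2 fold change 0.34). In attached cells 2 again rose and none fell, among them Lama3 at 54.0 FPKM in JNK-deficient and 42.3 FPKM in control cells (log2 fold change 0.35).

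The list of 18 genes of type IV collagen and other basement membrane proteins includes Col4a1 and Col4a2. Of these genes, 4 of the 11 tested rose and 2, Col4a2 among them, fell in suspended JNK-deficient against control cells. In attached cells 6 of 12 rose and 2 fell. The risers included other type IV collagen chains. Col4a3 was at 48.5 FPKM in attached JNK-deficient and 14.5 FPKM in attached control cells (log2 fold change 1.75), and Col4a4 at 33.9 FPKM in attached JNK-deficient and 12.5 FPKM in attached control cells (log2 fold change 1.44). Both stood well above Col4a1 and Col4a2 in FPKM. Nid1, which encodes nidogen, the link between laminin and type IV collagen, fell to 4.79 FPKM in suspended JNK-deficient against 16.2 FPKM in suspended control cells (log2 fold change -1.76) and to 1.86 FPKM in attached JNK-deficient against 4.45 FPKM in attached control cells (log2 fold change -1.26). With suspension 2 of 11 genes of this list rose and 8 fell in JNK-deficient cells, and 3 of 13 rose and 8 fell in control cells. These risers included the members, Col4a1 in both genotypes and Col4a2 in control cells. Hspg2, which encodes perlecan, was at 2.55 FPKM suspended and 9.80 FPKM attached in control cells (log2 fold change -1.94, or -0.65 after correction for GC content and length).

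Of 22 fibulins, fibrillins and other glycoproteins, the list that holds Fn1 and Fbln2, 1 of the 13 tested rose and 7 fell in suspended JNK-deficient against control cells, and 4 of 13 rose and 8 fell in attached ones. Besides the members, Ltbp2, a latent TGF-beta binding protein gene, was at 1.31 FPKM in suspended JNK-deficient and 3.43 FPKM in suspended control cells (log2 fold change -1.38), and at 3.73 FPKM in attached JNK-deficient and 5.83 FPKM in attached control cells (log2 fold change -0.64). Efemp1, another fibulin gene, rose, at 18.4 FPKM in attached JNK-deficient and 9.41 FPKM in attached control cells (log2 fold change 0.96), and with a log2 fold change of 0.82 in suspended cells. So low Fbln2 was not shared by every fibulin tested. With suspension none of 10 rose and 6 fell in JNK-deficient cells, and 2 of 14 rose and 7 fell in control cells.

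Of 22 matricellular genes, which include Sparc, Thbs1 and Tnc, none of the 8 tested rose and 3 fell with suspension in JNK-deficient cells, and 2 of 9 rose and 5 fell in control cells. The falls included Ctgf, at 43.2 FPKM suspended and 979 FPKM attached in JNK-deficient cells (log2 fold change -4.50) and at 19.4 FPKM suspended and 815 FPKM attached in control cells (log2 fold change -5.39). They also included Cyr61, at 6.36 FPKM suspended and 124 FPKM attached in JNK-deficient cells (log2 fold change -4.28) and at 13.6 FPKM suspended and 145 FPKM attached in control cells (log2 fold change -3.41). Both encode secreted CCN proteins that are classical targets of the co-activator YAP. Between genotypes 3 of 9 matricellular genes rose and 3 fell in suspended cells, and 3 of 7 rose and 1 fell in attached cells. In suspension Ctgf rose, like Thbs1, at 45.3 FPKM in JNK-deficient against 19.7 FPKM in control cells (log2 fold change 1.20), and Cyr61 fell, at 6.71 FPKM in JNK-deficient against 13.8 FPKM in control cells (log2 fold change -1.04).

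**Figure D4:**
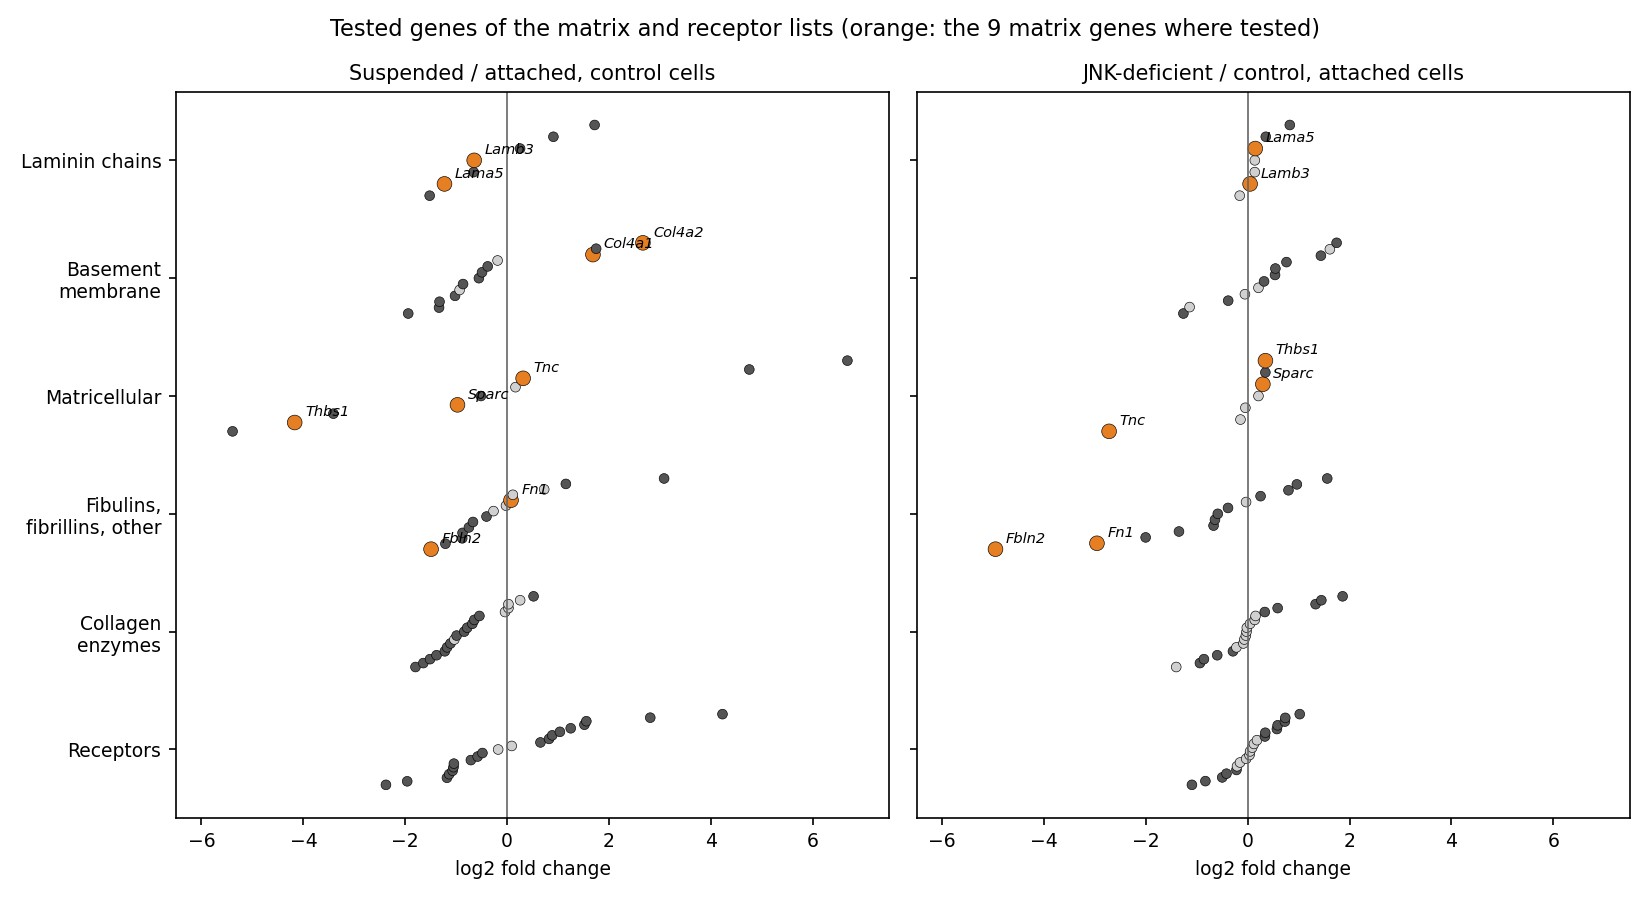
Log2 fold change (horizontal axes) of every tested gene of 6 gene lists, in control cells with suspension (left panel) and in attached cells with JNK deficiency (right panel). Orange points are the members, dark grey points had an authors' q-value below 0.05 and light grey points did not; vertical offsets within a list only separate points, and Fbln2, Fn1 and Tnc are the lowest points of the right panel.

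Among 25 genes of collagen folding and crosslinking, 1 of the 18 tested rose and 11 fell with suspension in JNK-deficient cells, and 1 of 19 rose and 13 fell in control cells. Serpinh1, the collagen chaperone HSP47, was at 36.6 FPKM suspended and 110.4 FPKM attached in JNK-deficient cells (log2 fold change -1.59) and at 41.1 FPKM suspended and 143 FPKM attached in control cells (log2 fold change -1.80). Its values corrected for GC content and length were -0.83 in JNK-deficient and -1.17 in control cells. Between genotypes 5 of 18 rose and 3 fell in suspended cells and 5 of 19 rose and 4 fell in attached cells. The risers included Tgm2, a crosslinker of fibronectin, at 7.15 FPKM in attached JNK-deficient and 1.96 FPKM in attached control cells (log2 fold change 1.86).

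Of 13 interstitial collagen genes, few were expressed enough to be tested. With suspension none of 2 rose and 1 fell in JNK-deficient cells, and 2 of 5 rose and 1 fell in control cells. Between genotypes 1 of 3 rose and 1 fell in suspended cells, and 1 of 2 rose in attached cells. Col8a1 was the abundant one, at 78.2 FPKM in attached JNK-deficient and 38.5 FPKM in attached control cells (log2 fold change 1.02). Of 10 matrix proteoglycan genes a single one was tested in each comparison, and Vcan rose with suspension in control cells, at 1.27 FPKM suspended against 0.440 FPKM attached (log2 fold change 1.53).

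Of 26 receptors of fibronectin, laminin and collagen, 8 of the 22 tested rose and 11 fell with suspension in JNK-deficient cells, and 9 of 21 rose and 10 fell in control cells. Itga3, the integrin alpha chain that binds laminins containing Lamb3 or Lama5, was at 90.3 FPKM suspended and 547 FPKM attached in JNK-deficient cells (log2 fold change -2.60) and at 105 FPKM suspended and 545 FPKM attached in control cells (log2 fold change -2.38). Its corrected values were -1.70 in JNK-deficient and -1.59 in control cells. Cd44, a receptor of hyaluronan and fibronectin, rose in both, at 62.2 FPKM suspended against 9.48 FPKM attached in JNK-deficient cells (log2 fold change 2.71) and 99.6 FPKM suspended against 14.2 FPKM attached in control cells (log2 fold change 2.81). Between genotypes 3 of 22 receptors rose and 3 fell in suspended cells, and 7 of 20 rose and 5 fell in attached cells. Itga5, the alpha chain of the main fibronectin receptor, was at 4.99 FPKM in suspended JNK-deficient and 8.36 FPKM in suspended control cells (log2 fold change -0.74; q = 0.00257 in the authors' deposited table).

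Across the 4 log2 fold changes the 9 genes did not form a single pattern. By Euclidean distance the closest members were Lamb3 and Lama5 at 0.919, then Col4a1 and Col4a2 at 1.56 and Fn1 and Tnc at 1.98, and the farthest were Col4a2 and Thbs1 at 8.74. Tnc, Col4a1 and Col4a2 each lacked a test in some comparison. Their untested log2 fold changes, from levels under 1 FPKM, were used as they stood. Each member's nearest gene was found in the same way among 9056 candidates tested in all 4 comparisons with at least 5 FPKM in some group. For Fn1 it was Dusp8 at a distance of 1.20, with log2 fold changes between genotypes of -4.38 in suspended and -3.02 in attached cells. For Fbln2 it was Havcr1, the injury marker KIM-1, at 1.12, with log2 fold changes of -4.66 in suspended and -3.99 in attached cells. For Tnc it was Nkain1 at 0.714, followed by the deleted gene Mapk8 at 1.11, which was not among the 3 nearest when each fold change was divided by its SD.

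The laminin genes lay at smaller distances from their nearest genes. The nearest to Lama5 was Itpk1 at 0.0642 and the nearest to Lamb3 was Elmod3 at 0.0703. Col4a1 was nearest to Khnyn at 0.108 and Col4a2 to Adam8 at 0.645, or to Slc26a2 and Mapk14 when each fold change was divided by its SD. Sparc was nearest to St3gal4 at 0.192, whose log2 fold changes with suspension were -0.04 in JNK-deficient and -1.01 in control cells, with 1.30 between genotypes in suspension. Thbs1 was nearest to Rasl11b at 0.678, whose log2 fold changes with suspension were -4.11 in JNK-deficient and -3.91 in control cells, and in SD units it was nearest to Lsmd1. The 4 fold changes of a gene share groups, so these distances describe likeness over 4 group values and not independent measurements. A distance also depends on how many candidates have fold changes of that size, so small and large distances are not compared as closeness of regulation.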

How the data were processed

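RNA of 12 samples was measured by sequencing, and the samples were grouped by the genotype and culture labels. Per the labels' protocols, RNA was column-purified with DNase digestion, messenger RNA was selected and Illumina libraries were sequenced. Per the submitters' processing notes, TopHat, Bowtie, Cufflinks 1.0.3 and Cuffdiff were used with mouse build mm10; for the annotation, strand setting and read depth, nothing is given in the sources used here. The authors deposited 4 tables of 31026 entries, each with a gene symbol, a locus, 1 FPKM value per group, a p-value and a q-value. Which FPKM column belongs to which group was read from the order of groups in the tables' names; the same group's values then matched between tables up to a common factor, with an SD of at most 0.00328 on the log2 scale.

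In the deposited p-values, spaced 5e-05 apart, a value of 1 marks an untested entry, and the q-values equalled Benjamini-Hochberg adjustment over the tested entries within 8.56e-05. Fold changes were computed here from the FPKM values with no pseudocount. Dividing a log2 fold change, without its sign, by the normal score that matches its p-value (at most 0.95) gave the SE. For the difference of suspension effects both pairs of tables, by suspension and by genotype, were used; 1717 of 12765 entries had only an upper bound. GC content and length came from the longest GENCODE transcript (96.0% of tested entries and all 9 members), and their trend was fitted with cubic splines of 6 knots. Symbols on several entries (593) or entries with several symbols (571) concern none of the members. Computation used Python 3.11.15, numpy 2.4.6, pandas 2.3.3, scipy 1.17.1, scikit-learn 1.9.0 and matplotlib 3.10.9, and the tests were checked on simulated data.

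The members and gene lists were chosen with earlier results of these data known. From each list and comparison up to 4 genes past the threshold with the largest fold change and at least 1 FPKM in the higher group could be named, and for each member the 3 nearest genes with at least 5 FPKM in some group. No set test was run: lists are given by counts. Alternatives were a q-value threshold of 0.01, a 1.5-fold minimum, a 1 FPKM minimum, a pseudocount of 1, centring, composition correction, single-symbol entries and other routes to the SE.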

Additional observations from a re-analysis of the deposited data

Results flagged for a closer look

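Fn1 and Sparc passed the test for a difference between genotypes in the response to suspension, and neither call held under every alternative. The log2 fold change of Fn1 with suspension was -0.54 in JNK-deficient cells and 0.08 in control cells, a difference of -0.62 (SE 0.184 from the authors' p-values; adjusted p = 0.0469 by the z-test). That of Sparc was 0.13 in JNK-deficient cells and -0.97 in control cells, a difference of 1.11 (SE from the authors' p-values at most 0.312; adjusted p = 0.0296 by the z-test). The Fn1 call was lost after correction for GC content and length (adjusted p = 0.113 from the authors' p-values). It was also lost with the SE from the suspension tables alone (0.0789), where its SE was unchanged and only the adjustment over other entries differed. The genotype tables alone gave 0.917, from an SE that is only an upper bound and cannot decide the call. The Sparc call was lost with the SE from the genotype tables alone (adjusted p = 0.0856 from the authors' p-values), also an upper bound. Both calls were lost at a threshold of 0.01. Both genes also differed between genotypes in attached cells. Fn1 had 7.78-fold less RNA in attached JNK-deficient cells, and Sparc had 1.23-fold more.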

How the results depend on the processing

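No paired analysis was possible because the tables hold no value per sample, and for the same reason no sample could be left out in turn. The precision is that of the authors' test, and for members under 1 FPKM (Col4a1, Col4a2, and Tnc and Fbln2 in JNK-deficient cells) several tests were missing or wide. No value of a member changed direction under any alternative run. With correction for GC content and length, 3 members passed for suspension in JNK-deficient cells (5 uncorrected) and 1 for the difference of suspension effects (2 uncorrected). By direction, that correction left 2 members lower with suspension in JNK-deficient cells (4 uncorrected) and 3 in control cells (5 uncorrected). List genes were then 21 higher and 26 lower in JNK-deficient cells (13 and 44 uncorrected) and 28 higher and 30 lower in control cells (23 and 48 uncorrected). With a 1.5-fold minimum, 3 members (5 without it), 31 list genes and 1409 of all entries (3737 without it) passed in attached JNK-deficient against control cells. At a q-value threshold of 0.01, 969 entries passed in the suspended genotype comparison (1600 at 0.05). For the difference of suspension effects, 1 member and 103 entries passed with the SE from the suspension tables, 0 members with that from the genotype tables, and 0 members and 100 entries at an adjusted p of 0.01, against 2 members and 230 entries. A stricter threshold lets fewer pass by construction. An SE that is only an upper bound, as used in the correction and the other SE routes, can do so too. The cause was otherwise not tested. With each fold change divided by its SD, 16 of the 27 nearest genes remained. Col4a2 in suspended cells was lost at 0.01, Sparc and Thbs1 in attached cells and Fn1 with suspension in JNK-deficient cells under the 1.5-fold minimum. A 1 FPKM minimum removed Col4a1 and Col4a2 from every comparison and Fbln2 from suspension in JNK-deficient cells. Centring brought Lamb3 and Lama5 under 0.05 in suspended JNK-deficient against control cells.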
